A study of Homo sapiens with 6 samples.

Results

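The POU genes described here are POU3F2 (BRN2), POU3F1 (OCT6), POU3F3 (BRN1), POU4F1 (BRN3A), POU4F2 (BRN3B) and POU2F1 (OCT1), read through the accessible chromatin assigned to them. A peak was taken as belonging to one of these 6 genes when its centre lay within the gene body in the GENCODE v44 annotation, or when it lay outside all protein-coding genes and the gene had the nearest protein-coding start site. This gave 75 of 152800 peaks, 10 in gene bodies and 65 intergenic, with 27 for POU3F2, 21 for POU3F1, 9 for POU2F1, 8 for POU3F3, 6 for POU4F1 and 4 for POU4F2. Chromatin accessibility was measured by ATAC-seq, in which the Tn5 transposase inserts adaptors into open DNA, so that a peak is a region with many reads and its count rises with accessibility. The cells were A375, an established human melanoma line. One group of 3 libraries carried an empty vector, and the other group of 3 libraries was a stable line that overexpressed HMGB2, a DNA-bending chromatin protein, after lentiviral transduction (HMGB2OE). The study's reporting summary calls the 3 libraries of a condition technical replicates of an experiment that was not repeated, so the p-values below measure only the spread between these libraries. Other differences between the lines cannot be told apart from the effect of HMGB2.

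POU proteins bind DNA with a paired POU-specific domain and homeodomain, and many of them direct the development of neurons and other cells of neural origin. BRN2, the product of POU3F2, is expressed in developing brain and in melanoma, where it is associated with invasive, poorly pigmented cell states. Its expression is often inverse to that of the melanocyte regulator MITF, though the study states that both can be expressed together. OCT6 acts in Schwann cells, BRN1 in the cortex, BRN3A and BRN3B in sensory and retinal neurons, and OCT1 in most cell types.

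The longer sequences printed here are of 2 kinds. The first are the bases just before the start sites of POU3F2, POU3F1 and POU3F3, which are class III POU genes, shown because these promoters share a sequence feature. Each stretch of 250 bases ends at the base before the RefSeq start site (GRCh38.p14), reads in the direction of transcription, and has the word CCAAT in capitals. CCAAT was chosen after the sequences were seen and was searched on both strands.
POU3F2, chr6:98834324-98834573, plus strand: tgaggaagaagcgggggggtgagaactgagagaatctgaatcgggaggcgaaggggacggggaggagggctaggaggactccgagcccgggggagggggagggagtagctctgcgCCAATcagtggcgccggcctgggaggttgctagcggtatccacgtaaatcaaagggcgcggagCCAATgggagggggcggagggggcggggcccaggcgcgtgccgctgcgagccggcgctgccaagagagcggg
POU3F1, chr1:38046794-38047043, minus strand: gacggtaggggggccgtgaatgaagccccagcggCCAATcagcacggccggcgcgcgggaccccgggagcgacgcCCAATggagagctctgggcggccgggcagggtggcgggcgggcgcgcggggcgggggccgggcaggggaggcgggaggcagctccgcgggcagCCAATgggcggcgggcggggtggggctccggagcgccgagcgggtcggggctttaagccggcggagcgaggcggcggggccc
POU3F3, chr2:104853865-104854114, plus strand: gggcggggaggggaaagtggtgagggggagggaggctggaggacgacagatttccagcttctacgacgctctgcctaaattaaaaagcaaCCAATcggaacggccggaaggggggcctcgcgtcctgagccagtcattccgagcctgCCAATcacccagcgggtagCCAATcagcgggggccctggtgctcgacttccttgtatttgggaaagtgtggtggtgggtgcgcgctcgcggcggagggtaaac
The word was present 2 times before POU3F2, 3 times before POU3F1 and 3 times before POU3F3, and was absent from the same stretch of POU4F1, POU4F2 and POU2F1. POU3F4, a class III gene described further on, held 3 copies on either strand. Of 15345 protein-coding promoters, 11.7% held at least 2 copies and 3.81% at least 3. Among the 8005 promoters with a GC content at least that of the lowest of the 3 printed, 10.1% held at least 2. The POU3F3 stretch lies before the start of one annotated transcript and within an intron of another.

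The second kind are stretches of 300 bases from the 4 peaks with an adjusted p under 0.05 (hg38, plus strand). The word TGANTCA, a loose form of the site of AP-1 factors in which N is any base, is in capitals. The first is from the peak that rose most at POU3F2, and the others are from peaks with smaller differences.
POU3F2, 510 kb upstream, chr6:98324506-98324805: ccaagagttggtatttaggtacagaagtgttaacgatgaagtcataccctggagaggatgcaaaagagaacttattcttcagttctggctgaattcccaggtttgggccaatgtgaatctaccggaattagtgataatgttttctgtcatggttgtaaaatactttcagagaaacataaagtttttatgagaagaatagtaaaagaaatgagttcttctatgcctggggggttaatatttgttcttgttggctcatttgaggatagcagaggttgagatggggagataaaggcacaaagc
POU3F2, 86.3 kb upstream, chr6:98748019-98748318: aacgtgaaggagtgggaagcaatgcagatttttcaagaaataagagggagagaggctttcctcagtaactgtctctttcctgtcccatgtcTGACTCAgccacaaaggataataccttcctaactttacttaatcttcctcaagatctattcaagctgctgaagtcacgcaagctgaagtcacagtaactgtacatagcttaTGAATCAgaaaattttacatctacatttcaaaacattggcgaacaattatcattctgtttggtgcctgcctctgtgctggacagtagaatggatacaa
POU3F2, 710 kb upstream, chr6:98124204-98124503: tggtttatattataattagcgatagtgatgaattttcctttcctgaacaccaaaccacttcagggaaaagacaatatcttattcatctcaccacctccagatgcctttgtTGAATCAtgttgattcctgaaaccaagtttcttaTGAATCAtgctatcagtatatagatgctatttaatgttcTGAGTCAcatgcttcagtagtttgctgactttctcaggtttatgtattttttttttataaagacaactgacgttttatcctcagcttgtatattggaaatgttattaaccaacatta
POU3F1, 16.5 kb downstream, chr1:38030031-38030330: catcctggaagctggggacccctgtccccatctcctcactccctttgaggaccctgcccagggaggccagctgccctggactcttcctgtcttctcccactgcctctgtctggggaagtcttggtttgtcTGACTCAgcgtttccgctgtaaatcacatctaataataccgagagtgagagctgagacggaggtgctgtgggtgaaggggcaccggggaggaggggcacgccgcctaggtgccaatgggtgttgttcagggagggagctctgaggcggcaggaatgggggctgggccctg
The stretch of the POU3F2 peak 510 kb upstream held no copy of the word, and the others held 2, 3 and 1. The POU3F1 peak, with 1 copy, was also higher in HMGB2OE libraries. The octamer ATGCAAAT, the classical word bound by POU proteins, was found in 1 of the 75 peaks, 46.8 kb upstream of POU4F2, and stands in capitals in the 61 bases around it.
POU4F2, chr4:146592232-146592292: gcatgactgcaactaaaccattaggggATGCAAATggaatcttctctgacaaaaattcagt

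Counts in peaks summed to between 26910189 and 45645294 per library, and no library was a copy of another: counts of libraries sharing a condition gave a chi-square of 2.50 to 4.66 for each degree of freedom, above the value near 1 of sampling noise alone. Values below are normalized counts, the counts scaled to a common library size with TMM factors, and log2 fold changes are HMGB2OE over empty vector from edgeR's quasi-likelihood test with Benjamini-Hochberg adjustment over 150117 tested peaks. A peak was called when its adjusted p was under 0.05 and its fold change at least 1.5 (log2 0.585). As a coarse check of the lineage, the promoter peaks of 5 of 7 melanocyte genes were present, from the 62.1 percentile of mean counts over all tested peaks for MLANA to the 97.1 percentile for MITF and above it for PMEL, whereas TYR and DCT had none. Of 6 genes of keratinocytes, leukocytes and endothelium, 5 also had a promoter peak, between the 55.4 and 88.5 percentiles, so this check did not separate the cell types. Peaks had been called with public melanocyte data as the control, and the part of this in the missing TYR and DCT peaks was not tested. A peak inside HMGB2 itself (chr4:173332680-173333181) had normalized counts of 50.03, 25.0 and 21.1 in empty vector and 102, 101 and 92.3 in HMGB2OE libraries (log2 fold change 1.67, adjusted p = 0.000113), while the peak at its promoter had a log2 fold change of −0.01. Another HMGB2 peak (chr4:173331939-173332440) also rose, from a mean of 28.7 in empty vector to 63.0 in HMGB2OE libraries (log2 fold change 1.16, adjusted p = 0.00822). The peak at chr4:173346039-173346540 had a log2 fold change of −0.03. Reads from the overexpression construct could fall in peaks inside the gene, and their part in these differences was not tested.

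Few of the 75 POU peaks differed between the conditions. A single peak, 510 kb upstream of POU3F2, was called higher in HMGB2OE cells and none was called lower, and DESeq2's Wald test also gave 1 and 0. The calls made up 1.33% of the POU peaks, beside a background of 1.87% called higher and 1.44% called lower in the whole table, or 3.31% in either direction. All 75 peaks passed the filter on low counts. Without the limit on the fold change, 2 were higher and 2 lower, 5.33% against 6.47% of all tested peaks. At an unadjusted p under 0.05 there were 8 higher and 6 lower, 14 in all, while 20.9% of all tested peaks were past that limit. The libraries of the groups did not overlap at 16 POU peaks, with HMGB2OE above at 11 and below at 5. That is 21.3%, beside 25.1% of all tested peaks. The log2 fold changes ran from −0.89 to 1.06 with a median of 0.01, and the median over all tested peaks was −0.0049 (40 of the POU peaks were above 0 and 35 below). The median standard error of a POU peak was 0.18, so differences near the fold limit could be missed at the weaker peaks.

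**Figure D1:**
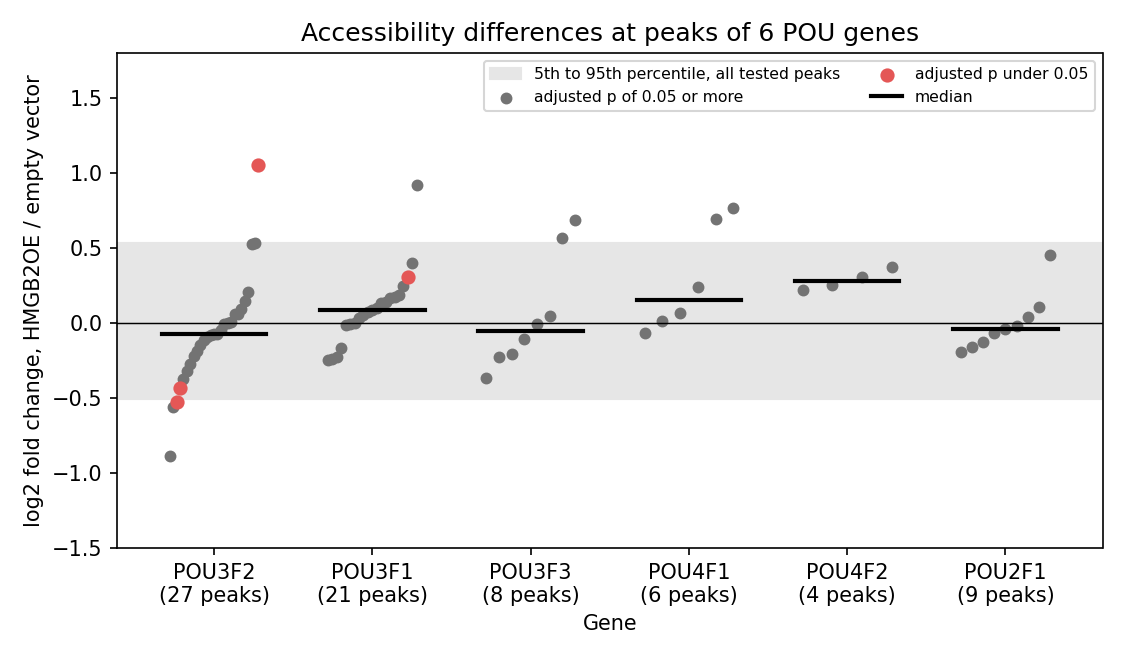
Log2 fold change (HMGB2OE over empty vector, vertical axis) of each of the 75 peaks, grouped by gene on the horizontal axis. POU3F2 spans the widest range, from −0.89 to 1.06, and all 4 peaks of POU4F2 lie above 0, between 0.22 and 0.37.

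The promoter of POU3F2 was among the most accessible regions of these cells in both conditions. Its peak (chr6:98834223-98834724) is centred 101 bases upstream of the start of the single-exon gene (ENSG00000184486.10, chr6:98834574-98839458, plus strand) and contains the CCAAT words printed above. It had normalized counts of 1152, 1208 and 1173 in empty vector and 1133, 1104 and 1117 in HMGB2OE libraries. All HMGB2OE libraries were below all empty vector libraries, but the difference was small, with a log2 fold change of −0.08 (95% interval −0.23 to 0.08, adjusted p = 0.627). Of 3 peaks inside the gene, those over its coding sequence, the second reaching into untranslated exon, had log2 fold changes of −0.18 and −0.32 (adjusted p = 0.43 and 0.198), and their libraries overlapped between the groups. The third peak inside the gene, in its untranslated exon 3.62 kb from the start (chr6:98837939-98838440), was weak and had a log2 fold change of the other sign, 0.15 (95% interval −0.40 to 0.70, adjusted p = 0.806). The peak 5.43 kb downstream of the start, beyond the gene, had a log2 fold change of −0.37 (adjusted p = 0.191).

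The other class III promoters showed no called difference. At POU3F1, also a single-exon gene (ENSG00000185668.8, chr1:38043829-38046793, minus strand), the promoter peak (chr1:38046803-38047304) had 839, 960 and 990 normalized counts in empty vector and 955, 1118 and 1004 in HMGB2OE libraries, which overlap (log2 fold change 0.14, 95% interval −0.04 to 0.32, adjusted p = 0.379). POU3F3 (ENSG00000198914.5, chr2:104853287-104858574, plus strand) had a weaker promoter peak (chr2:104853836-104854337), with 186, 213 and 190 in empty vector and 166, 195 and 189 in HMGB2OE libraries. These overlapped too (log2 fold change −0.10, 95% interval −0.37 to 0.16, adjusted p = 0.699).

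Among the class IV genes, the promoter peak of POU4F2 (chr4:146636886-146637387, 1.76 kb upstream of ENSG00000151615.3) had 179, 184 and 185 normalized counts in empty vector and 220, 215 and 204 in HMGB2OE libraries. The groups did not overlap, but the log2 fold change of 0.22 had a 95% interval of −0.03 to 0.47 (adjusted p = 0.312). The promoter peak of POU4F1 (chr13:78605156-78605657, 1.85 kb upstream of ENSG00000152192.8) had 231, 291 and 317 against 316, 263 and 272 (log2 fold change 0.02, 95% interval −0.24 to 0.27, adjusted p = 0.961). Its sign turned without empty vector replicate 1 (−0.092) or HMGB2OE replicate 1 (−0.071). POU2F1, the broadly expressed class II factor (ENSG00000143190.23, chr1:167220876-167427345, plus strand), had its promoter peak inside the gene, 1.36 kb from the start (chr1:167221988-167222489), at 1151, 1228 and 1051 against 1061, 1054 and 1027 (log2 fold change −0.13, 95% interval −0.29 to 0.04, adjusted p = 0.391).

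**Figure D2:**
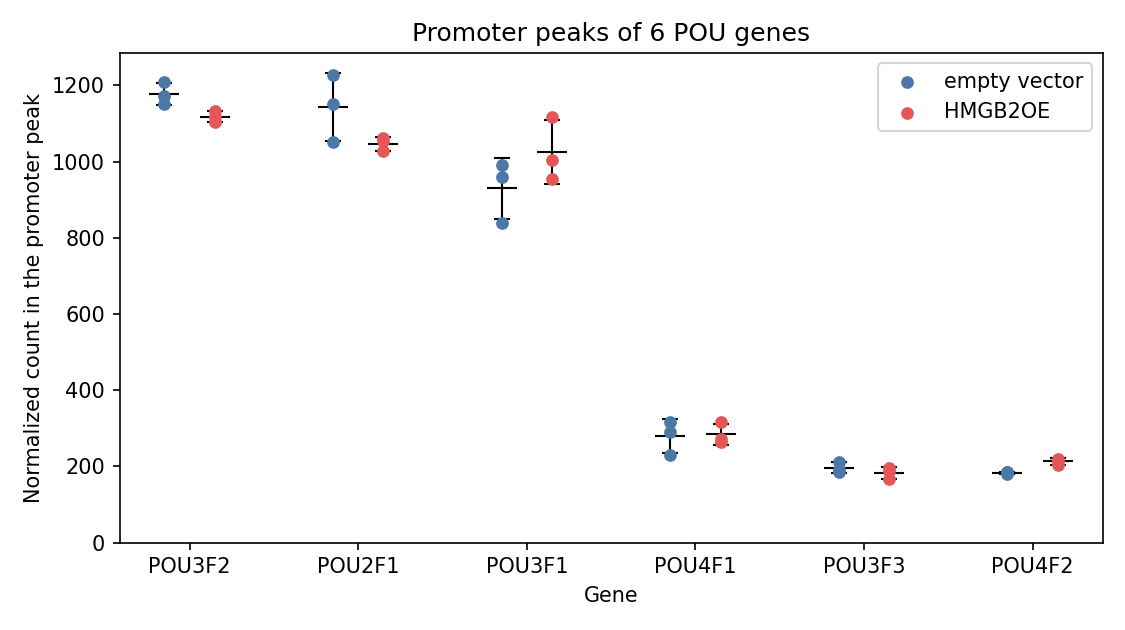
Normalized counts (vertical axis, from 0) in the promoter peak of each of the 6 genes (horizontal axis), with a point for each library, blue for empty vector and red for HMGB2OE, and the mean ± SD of 3 libraries. POU3F2, POU2F1 and POU3F1 have group means from 930 to 1178, and the other 3 genes from 183 to 284.

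The promoter peaks stood at 2 levels of accessibility in both conditions. All are 502 bp wide, so length does not set their counts apart. Their GC content ran from 54.0% for POU4F1 to 77.7% for POU3F1. The parts of GC content and of copy number in these levels were not tested. By their mean over the 6 libraries, the peaks of POU3F2, POU2F1 and POU3F1 were at the 96.1, 95.7 and 94.6 percentiles of all tested peaks, and those of POU4F1, POU4F2 and POU3F3 at the 76.6, 68.9 and 67.9 percentiles. In empty vector libraries, POU3F2 stood at 1178 ± 28.3 (SD, n = 3), POU2F1 at 1143 ± 88.7 and POU3F1 at 930 ± 79.7. POU4F1 stood at 280 ± 44.3, POU3F3 at 196 ± 14.3 and POU4F2 at 183 ± 3.04. The POU4F1 level is that of its strongest peak within 3 kb. The peak at its start site (chr13:78603350-78603851) stood lower, at 128 ± 17.97 in empty vector and 121 ± 13.1 in HMGB2OE libraries, below the promoter peaks of POU3F3 and POU4F2 and at the 55.7 percentile. The POU3F3 level is also that of its strongest peak, near the start of a further transcript. The peak at the start of the POU3F3 gene (chr2:104852986-104853487) stood at 64.6 ± 18.6 in empty vector and 67.3 ± 17.0 in HMGB2OE libraries, at the 30.9 percentile. Among the promoter peaks in empty vector libraries, POU3F2 and POU2F1 overlapped, and POU3F3 and POU4F2 differed by less than 1 SD of POU3F3. In HMGB2OE libraries the means were 1118 ± 14.4 for POU3F2, 1047 ± 18.1 for POU2F1, 1025 ± 83.6 for POU3F1, 284 ± 28.5 for POU4F1, 213 ± 8.41 for POU4F2 and 183 ± 15.5 for POU3F3. POU2F1 and POU3F1 overlapped in these libraries, and POU4F2 lay above POU3F3.

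The 27 peaks of POU3F2 reach from 710 kb upstream to 11.2 kb downstream of its start, and 14 of them lie more than 100 kb upstream. The peak that rose lies 510 kb upstream (chr6:98324405-98324906), within the long non-coding RNA gene ENSG00000271860. Its normalized counts were 32.0, 28.4 and 23.4 in empty vector and 57.0, 57.6 and 59.7 in HMGB2OE libraries. The groups did not overlap (27.9 ± 4.30 against 58.1 ± 1.43, SD, n = 3; log2 fold change 1.06 with a standard error of 0.267, adjusted p = 0.0147). The peak is weak, in the 13.5 percentile of mean counts, with raw counts between 20 and 69. Without empty vector replicate 3, HMGB2OE replicate 1 or HMGB2OE replicate 2 the adjusted p was 0.0536, 0.0547 and 0.0517, with log2 fold changes of 0.95, 1.07 and 1.06.

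With all 6 libraries, a pair of stronger POU3F2 peaks was lower in HMGB2OE cells by less than the fold limit. The one 86.3 kb upstream (chr6:98748003-98748504) had 500, 546 and 420 normalized counts in empty vector and 379, 405 and 298 in HMGB2OE libraries, with no overlap (log2 fold change −0.43 with a standard error of 0.116, adjusted p = 0.0211). The farthest, 710 kb upstream (chr6:98124112-98124613) in the same non-coding RNA gene, had 332, 336 and 235 against 199, 252 and 174, which overlap between empty vector replicate 3 and HMGB2OE replicate 2 (log2 fold change −0.53, standard error 0.14, adjusted p = 0.0211). Each passed 0.05 only with the full set of libraries or without empty vector replicate 3 or HMGB2OE replicate 2. Without empty vector replicate 1 or 2, or HMGB2OE replicate 1 or 3, their adjusted p-values lay between 0.0507 and 0.14. The peak at 710 kb also passed the fold limit, and so was called lower, without empty vector replicate 3 (−0.67, adjusted p = 0.00471) or HMGB2OE replicate 2 (−0.69, adjusted p = 0.0102). With GC-content offsets its adjusted p was 0.0669.

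The rest of the POU3F2 peaks did not pass the test. The lowest log2 fold change of an uncalled peak was at a weak peak 268 kb upstream (chr6:98566104-98566605), with 43.1, 41.3 and 24.6 against 17.9, 20.9 and 20.3 (log2 fold change −0.89 with a standard error of 0.348, adjusted p = 0.129). The strong peak 47.0 kb upstream (chr6:98787369-98787870) had 864, 1087 and 1072 in empty vector and 1031, 990 and 1031 in HMGB2OE libraries, a log2 fold change of 0.01 (95% interval −0.17 to 0.19). Of all 27 peaks, 10 were above 0 and 17 below, with a median of −0.08. The 46 peaks of other genes within 1 Mb of the start had a median of 0.06, with 1 called higher and 0 lower.

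**Figure D3:**
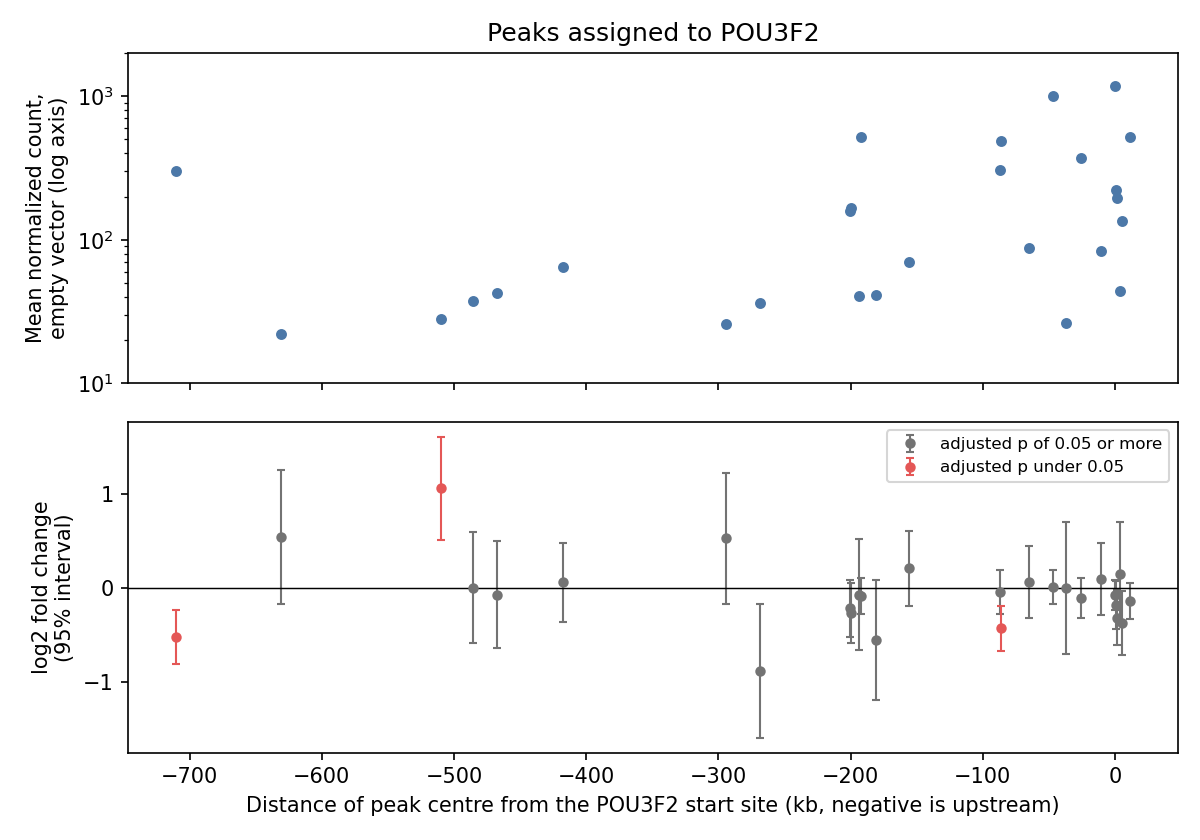
The 27 peaks of POU3F2 by distance of the peak centre from its start site (kb, horizontal axis), with the mean normalized count of the empty vector libraries on a log axis above and the log2 fold change with its 95% interval below. Red marks an adjusted p under 0.05: the peak 510 kb upstream at 1.06, and those 710 kb and 86.3 kb upstream at −0.53 and −0.43.

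POU3F1 had 15 of 21 peaks above 0 and 6 below, with a median log2 fold change of 0.09, beside −0.01 for the 97 peaks of other genes within 1 Mb. The only one past an adjusted p of 0.05 lies 16.5 kb downstream of the start (chr1:38030031-38030532). It had 506, 497 and 594 normalized counts in empty vector and 651, 632 and 697 in HMGB2OE libraries, with all HMGB2OE libraries above (log2 fold change 0.31 with a standard error of 0.0951, adjusted p = 0.0461). The adjusted p was between 0.0805 and 0.194 when any library but empty vector replicate 3 was left out, while the log2 fold change stayed between 0.26 and 0.39 over all 6 omissions. It was 0.0678 with GC-content offsets, 0.055 with these and the replicate block, and 0.0625 with centring on 10 Mb windows. The highest log2 fold change of an uncalled peak, 83.3 kb upstream in the long non-coding RNA gene LINC02786 (chr1:38129847-38130348), came from 43.1, 15.5 and 49.1 against 66.3, 48.4 and 83.3, which overlap (0.92, standard error 0.306, adjusted p = 0.0686). This value moved with the libraries used. It was called without empty vector replicate 3, at 1.249 with an adjusted p of 0.0338, and was 0.50 (adjusted p = 0.371) without empty vector replicate 2 and 0.72 (adjusted p = 0.265) without HMGB2OE replicate 3. The most accessible POU3F1 peak, 17.7 kb upstream in the long non-coding RNA gene MIR3659HG (chr1:38064209-38064710), had 921, 1260 and 1211 against 1262, 1134 and 1137 (log2 fold change 0.05, 95% interval −0.14 to 0.24).

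**Figure D4:**
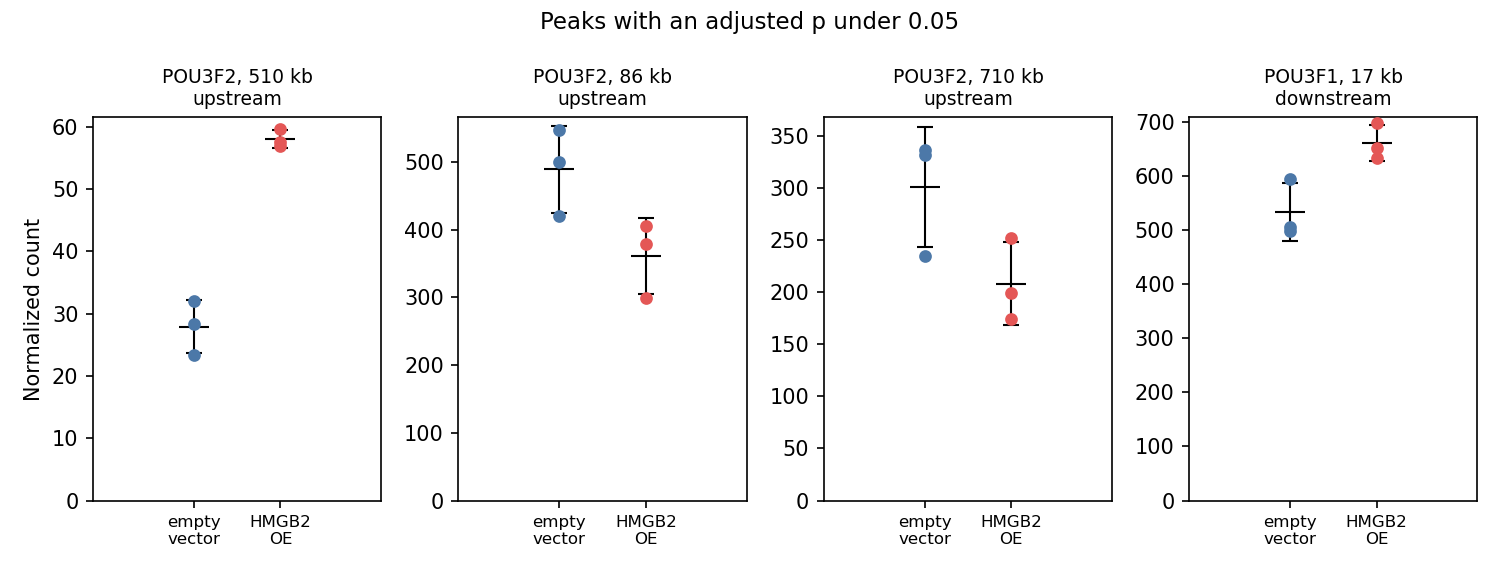
Normalized counts (vertical axes, each from 0) of the 4 peaks with an adjusted p under 0.05, with a point for each of 3 empty vector (blue) and 3 HMGB2OE (red) libraries and the mean ± SD. The groups separate at the POU3F2 peaks 510 kb and 86.3 kb upstream and at the POU3F1 peak 16.5 kb downstream, and overlap at the POU3F2 peak 710 kb upstream.

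POU3F3 had 3 of 8 peaks above 0 and 5 below (median −0.05, range −0.36 to 0.68). POU4F1 had 5 of 6 above 0 (median 0.15, range −0.07 to 0.77). POU4F2 had all 4 above 0 (median 0.28, range 0.22 to 0.37), and POU2F1 had 3 of 9 (median −0.04, range −0.20 to 0.45). None of these 27 peaks had an adjusted p under 0.05. The lowest adjusted p among them was at a weak POU4F1 peak 6.17 kb upstream in the antisense RNA gene OBI1-AS1 (chr13:78609476-78609977), chosen after its values were seen, with 41.7, 28.4 and 51.5 against 70.6, 70.1 and 51.8 (log2 fold change 0.69 with a standard error of 0.254, adjusted p = 0.0998). The groups there are separated by less than 1 normalized count, between empty vector replicate 3 and HMGB2OE replicate 3. All tested peaks in the 10 Mb windows holding POU4F1 and POU4F2 had medians of 0.0875 and 0.0884. Peaks of other genes within 1 Mb had medians of 0.0021 and 0.0113. With centring on 10 Mb windows, the POU4F2 promoter peak had a log2 fold change of 0.13 (adjusted p = 0.593). The most accessible of the 75 peaks, 9.46 kb upstream of POU2F1 (chr1:167211168-167211669), stood at 1677 ± 92.3 in empty vector and 1635 ± 56.7 in HMGB2OE libraries (SD, n = 3; log2 fold change −0.04, 95% interval −0.19 to 0.11).

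Counts summed over all peaks of a gene give a single value per gene, tested in the same way over 18004 protein-coding genes. Of these genes 9.23% had an adjusted p under 0.05, and of the 6 POU genes 0 did, by edgeR or by DESeq2. At an unadjusted p under 0.05 there were 3 of 6, beside 25.3% of all genes, and the libraries did not overlap at 3 of 6, beside 29.1%. POU4F2 had sums of 437, 412 and 498 in empty vector and 560, 556 and 518 in HMGB2OE libraries, all above (log2 fold change 0.29, 95% interval 0.10 to 0.47, adjusted p = 0.0533). POU3F1 had 4600, 4842 and 5256 against 5285, 5302 and 5516, again all above (log2 fold change 0.13, 95% interval 0.04 to 0.23, adjusted p = 0.0781). POU3F2 had 6050, 6306 and 6119 against 5795, 5814 and 5780, all below (log2 fold change −0.09, 95% interval −0.16 to −0.01, adjusted p = 0.14). POU4F1, POU2F1 and POU3F3 overlapped between the groups, at 0.16, −0.05 and −0.01. With only the peaks more than 3 kb from a start site, the POU4F1 sum had a log2 fold change of 0.41 (adjusted p = 0.0514), and 0 of the 6 sums passed 0.05. Without empty vector replicate 3, POU3F1 and POU4F2 passed 0.05, with adjusted p-values of 0.0104 and 0.0183.

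**Figure D5:**
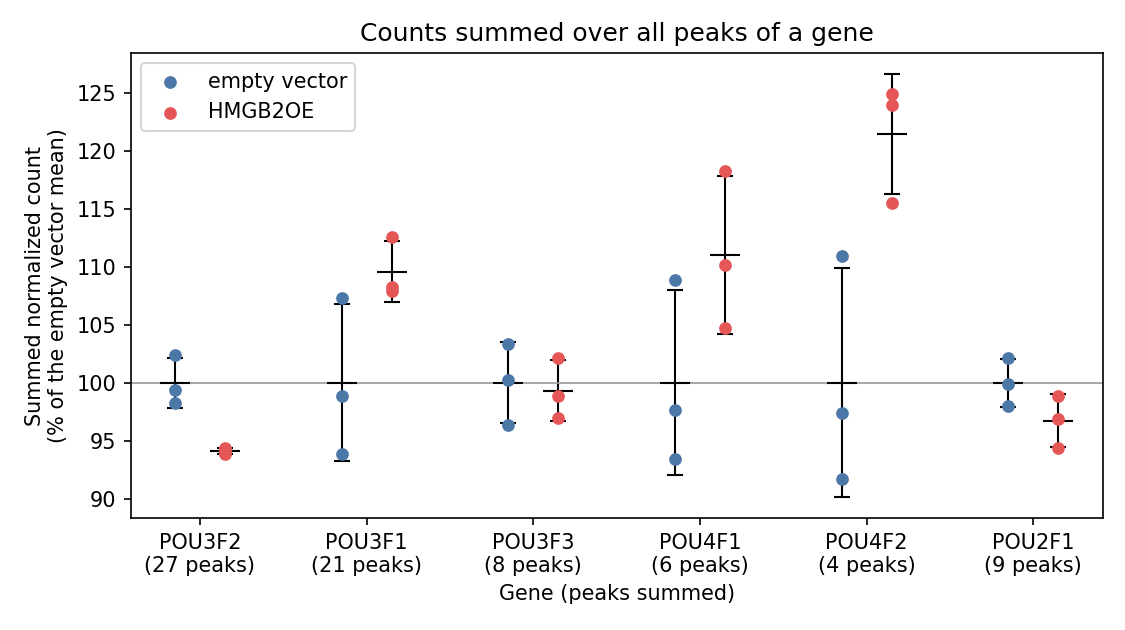
Summed normalized counts of each of the 6 genes as a percent of the empty vector mean (vertical axis), with a point for each of 3 libraries per group and the mean ± SD. All HMGB2OE libraries lie above those of empty vector at POU3F1 and POU4F2 and below them at POU3F2, and no gene passed an adjusted p of 0.05.

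By the likeness of their summed counts over the 6 libraries, the genes closest to POU3F2 among 4726 genes with at least 10 tested peaks were APC, TARS1 and PPP1R12A. Their centred log2 values differed from those of POU3F2 by a root mean square of 0.0111, 0.0113 and 0.0116, against a median of 0.0742 over all compared genes. Such a likeness rests on 6 libraries.

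Among the other POU genes and POU coactivators, a list read beside the 3.31% of all tested peaks called, POU1F1 had 1 of 10 peaks called higher and POU2AF2 had 1 of 6 called lower. POU2F2, POU2F3, POU3F4, POU5F1, POU6F1, POU2AF1 and POU2AF3 had 0 called peaks, with median log2 fold changes from −0.20 for POU3F4 to 0.41 for POU6F1. No tested peak was assigned to POU4F3 or POU5F2. The peak of POU1F1, the pituitary factor (chr3:87321094-87321595), had 338, 410 and 472 normalized counts in empty vector and 654, 598 and 693 in HMGB2OE libraries, all higher (log2 fold change 0.67 with a standard error of 0.107, adjusted p = 0.000254). The summed counts of POU1F1 rose by 0.25 on the log2 scale (adjusted p = 0.0028, and 0.00481 to 0.0252 with single libraries left out), whereas the median of its peaks was −0.07, of the opposite sign. The called peak of POU2AF2, a coactivator of the tuft cell factor POU2F3, is also intergenic, 186 kb upstream of its start (chr11:111059694-111060195). It had 36.1, 50.8 and 55.0 against 15.3, 12.5 and 27.0, all lower (log2 fold change −1.41 with a standard error of 0.341, adjusted p = 0.0106).

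The genes tied to BRN2 in melanoma, 10 regulators, partners and targets, had 243 tested peaks with 6 called higher and 2 lower, 3.29% against 3.31% of all tested peaks, and a median of −0.02. LEF1 and CTNNB1, of the Wnt pathway that acts on BRN2, had 2 of 29 and 1 of 30 peaks called higher. PAX3, the neural crest factor, and NOTCH2, a Notch receptor, had 1 called higher each (of 13 and 26). MITF, the melanocyte regulator, had 1 of 44 called lower, in the gene (chr3:69771094-69771595, 197 ± 15.1 against 131 ± 6.80, SD, n = 3; log2 fold change −0.59, adjusted p = 0.00721). NFIB, a chromatin-opening factor, had 1 of 39 in each direction. SOX10, NOTCH1, PDE5A and KITLG had none. None of the 10 summed counts had an adjusted p under 0.05, and 3 had an unadjusted p under 0.05. Leaving out single libraries gave 3 to 6 higher and 1 to 3 lower calls.

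The POU and AP-1 words were searched on both strands of each peak. ATGCNAAT, which includes the octamer, was in 3 of the 75 peaks (4% against 5.94% of all tested peaks), the octamer in 1 (1.33% against 3.08%) and ATAATTAAT in 1 (1.33% against 0.604%). TGANTCA was in 26 (34.7% against 36.4%), 0 of the 11 peaks within 3 kb of a start site and 26 of the 64 beyond. The median GC content of these peaks was 64.3% within 3 kb and 44.3% beyond. The split by distance was not made over all tested peaks, so it cannot be read as particular to the POU genes. A match is a description of the sequence only. The octamer peak of POU4F2, printed above, had 139, 167 and 212 normalized counts in empty vector and 220, 209 and 187 in HMGB2OE libraries, which overlap (log2 fold change 0.25, adjusted p = 0.318).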

How the data were processed

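ATAC-seq was done on 3 empty vector and 3 HMGB2OE libraries of A375 cells. Per the submitters' processing notes and the study's methods, reads were trimmed with Trim Galore 0.6.7 and cutadapt 4.0, aligned to hg38 with Bowtie 2, freed of duplicates with Picard, and compared with public melanocyte data in MACS2 to call peaks. Blacklisted regions were removed, nearby peaks were merged into 1 atlas, and the authors deposited raw counts per peak and library from featureCounts, with no normalization. A Tn5 shift and the treatment of reads with several alignments are not given in the sources used here. Shifts in peak placement or repeats could therefore alter counts of weak peaks.

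Counts were tested with edgeR 4.0.16 in R 4.3.3: TMM factors (0.975 to 1.02), filterByExpr, the quasi-likelihood F test without covariates, and Benjamini-Hochberg adjustment over 150117 peaks or 18004 gene sums. Standard errors follow from F, as the log2 fold change over its square root. TMM centres the fold changes, so an overall change in accessibility would not appear. On simulated counts, all of 200 planted changes (log2 1.5) were recovered, with 10 false calls among 150114 peaks and 7 among 18010 gene sums. The changes were planted only in features above a minimum mean count, and the same dispersion was used for every feature. Recovery of smaller changes or of changes at weak peaks, such as those described here, was not tested.

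The members, lists and words were chosen with earlier results of these data known. Named were the 6 genes with their promoter peak (highest mean count within 3 kb of a start site) and sums, peaks with an adjusted p under 0.05, the 5 most accessible peaks, the largest uncalled rise and fall, genes of the other lists with a called peak, and the 3 genes most like POU3F2. The alternatives were other scalings (library size only, DESeq2's size factors, a loess trend, GC-content offsets, centring of 10 Mb windows), the DESeq2 1.42.0 Wald test, a replicate block, no filter or a minimum of 10 counts per library, other fold limits, other peak assignments, and leaving out each library. POU5F1B was not analysed here, and 1 further gene of the POU list is not reported here.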

Additional observations from a re-analysis of the deposited data

How the results depend on the processing

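Counts of called peaks were small and followed the libraries used. The count of POU peaks called higher (1) was 2 with the replicate block, 2 with the block and GC-content offsets, 2 with no fold limit, and 0 to 2 with a library left out. The count called lower (0) was 2 with no fold limit or with the lower one tried, and 0 to 1 with a library left out. Of all tested peaks, 5164 were higher and 4546 lower with no fold limit, 5045 and 4283 with the lower limit, and between 1821 and 2978 were higher with a library left out (1821 without HMGB2OE replicate 1). The POU genes past an adjusted p of 0.05 by their sums (0) were 2 with the replicate block, and 0 to 2 with a library left out. The labels do not say whether libraries with the same replicate number form pairs. Their deviations from the group means correlated at −0.09, 0.19 and 0.13. This cannot decide the question, since libraries with different numbers were not compared in this way. The peak added by the replicate block was the POU3F1 peak 83.3 kb upstream (adjusted p = 0.0183). Signs turned for values near 0. The promoter peak of POU4F1 was −0.040 with GC-content offsets, −0.038 with the block and offsets, −0.071 with 10 Mb centring, −0.066 at the peak within 1 kb of a start site, and −0.092 to 0.11 with a library left out. The sum of POU3F3 was −0.033 to 0.013 with a library left out. The peak 9.46 kb upstream of POU2F1 was 0.022 with the loess trend, and −0.074 to 0.0038 with a library left out. The POU3F1 peak 17.7 kb upstream was −0.067 to 0.14 with a library left out. The POU3F2 peak 47.0 kb upstream was −0.032 with GC-content offsets, −0.024 with the block and offsets, −0.0034 with 10 Mb centring, and −0.084 to 0.069 with a library left out. Of 387 alternatives of 25 single results, 345 kept their direction and side of the threshold. Most of these results had an adjusted p above 0.05, and the promoter peaks of POU3F2 and POU2F1 were each counted 2 times. Another 20 alternatives lost an adjusted p under 0.05. All were of the POU3F2 peaks 510, 86.3 and 710 kb upstream or the POU3F1 peak 16.5 kb downstream. With a library left out, these peaks kept it in 3, 2, 2 and 1 of 6 fits. With the other alternatives they kept it in 10, 10, 9 and 7 of 10. POU2F1 and POU4F2 have no peak within 1 kb of a start site, so that alternative gave them no value. Where a library is left out, 1 group has 2 libraries. The causes of these changes were not tested.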

Other observations

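Over all tested peaks, those with the octamer ATGCAAAT numbered 4628, of which 1.49% were called higher and 2.90% lower in HMGB2OE cells, with a median log2 fold change of −0.05. The octamer was in 6.19% of the peaks called lower, 2.46% of those called higher and 3.08% of all tested peaks. ATGCNAAT was in 10.7%, 4.89% and 5.94%. TGANTCA was in 51.0% of the peaks called lower and 43.0% of those called higher, against 36.4% of all tested peaks. The median GC content was 40.4% in the peaks called lower, 47.4% in those called higher, 46.2% in all tested peaks and 42.4% in the octamer peaks. The part of GC content in the shares of these words was not tested.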
